A study of Mus musculus with 2 samples.

Results

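The genes described here process and cross-link collagen. The list holds 10 mouse symbols: the lysyl oxidases Lox, Loxl1 and Loxl2, the prolyl 4-hydroxylase subunits P4ha1 and P4ha2, the lysyl hydroxylases Plod1, Plod2 and Plod3, the chaperone Serpinh1 and the procollagen protease Bmp1. They were matched by symbol to a table of 14886 protein-coding genes, and 8 matched. Loxl2 and Bmp1 were not analysed here. Ribosome footprints, the mRNA stretches that a translating ribosome shields from nuclease, were counted per gene in a library labelled IR and another labelled NC. Both came from mouse lung fibroblasts treated with cycloheximide, which stalls ribosomes on the mRNA. The title of the study names pulmonary fibrosis after radiation, rosmarinic acid and the change of fibroblasts into myofibroblasts. The labels do not spell out IR or NC, they give no dose, time, strain, age or passage, and neither library is labelled with rosmarinic acid. Whether the cells themselves were irradiated is not stated there.

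Each group is a single library, so replicates give no spread and conditions cannot be tested. Values with an interval carry a 95% interval for counting error only. PCR copies were not marked by molecular identifiers and could widen that error. A footprint count moves with the amount of an mRNA and with the ribosomes on each mRNA, and in a bulk library also with the share of cells that make it. These cannot be told apart here. Depth was 888835 counts for IR against 695446 for NC, and the 20 genes with most counts took 25.7% and 15.9% of them. Counts were therefore scaled by TMM, a trimmed mean of gene ratios, with factors of 0.890 and 1.12. Scaling by total counts instead lowers every log2 ratio of IR over NC by 0.34, so a fold under about 1.26 in IR turns to below 1-fold under it.

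Fibroblast markers were abundant in both libraries. The 12 of 14 analysed summed to 7017 counts in IR against 6407 in NC, of which Col1a1, Col1a2 and Col3a1 held 5133 and 4910. Of the 11 with a mean of at least 20 counts, 6 were higher in IR beyond counting error under TMM, 2 lower and 3 neither. Of all 5989 genes of that depth, 23.5% were higher and 23.7% lower. Under TMM, Pdpn (456 and 278 counts), Pdgfrb (131 and 80), Dcn (135 and 88), Fbln1 (227 and 159), Vim (611 and 521) and Col1a1 were higher. Pdgfra (38 and 66) and Col3a1 were lower. Thy1 (205 and 231) was within counting error under TMM, and Fap (5 and 19) was below that depth. Summed counts of markers of other cell types were also higher in IR, the deeper library. Epithelial markers (9 of 16 analysed) summed to 104 and 32 counts, mesothelial markers (6 of 8) to 511 and 128, leukocyte markers (8 of 12) to 455 and 334, and smooth muscle and pericyte markers (all 11) to 493 and 338. Much of these sums lay in single genes: Wt1 held 417 and 77 of the mesothelial counts, Cd74 244 and 169 of the leukocyte counts and Abca3 73 and 27 of the epithelial counts. In the smooth muscle list Synpo2 had 136 and 39 counts and Myh11 0 and 24. Abcc9, with 129 and 133 counts, and the leukocyte marker Cd3e, with 178 and 157, were within counting error under TMM. Endothelial markers (all 10) summed to 6940 and 2667, of which Emcn held 6842 and 2618, while the defining genes Pecam1 had 8 and 2 and Cdh5 1 and 0. Epcam had 0 and 1 counts and Ptprc 8 and 0. The part of these differences in the results below was not tested.

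Collagen chains are modified as they enter the endoplasmic reticulum. Prolyl 4-hydroxylases form hydroxyproline, which keeps the triple helix stable at body temperature, and lysyl hydroxylases form hydroxylysine, which carries sugars and sets the kind of cross-link that can form. The chaperone encoded by Serpinh1 holds the folded helix until it leaves for the Golgi. Outside the cell, procollagen proteases trim the ends, and lysyl oxidases, which need copper, turn lysines and hydroxylysines into the aldehydes that cross-link fibrils. In fibrotic lung these steps contribute to how stiff and how resistant to digestion the deposited matrix becomes.

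All 8 genes had a mean above the floor of 20 counts, and all 8 had the higher TMM-scaled count in IR, by between 1.07-fold and 3.04-fold. That shared direction depends on scaling: by total counts Lox (0.857), Plod2 (0.903) and Serpinh1 (0.850) fell below 1-fold. The share of all genes above 1-fold was not computed. Loxl1 and Plod3 were at least 2-fold higher and no gene of the list was 2-fold lower, against a background of 11.3% of 5989 genes at least 2-fold higher and 11.4% at least 2-fold lower. Under total-count scaling those background shares were 6.88% and 20.02%, and of the list only Loxl1 stayed past 2-fold. For 6 of the 8 the counting interval lay above 1-fold, with 0 below, where 23.5% of the 5989 genes lay above and 23.7% below. Under total-count scaling 3 lay above (Loxl1, P4ha2 and Plod3) and 1 below (Serpinh1), where 13.1% and 39.1% of the 5989 genes did. Among the 1332 genes whose mean reached 100 counts, 38.2% lay above and 25.8% below, and 5 of the 7 listed genes of that depth lay above. At that depth 1 of the 7 was at least 2-fold higher and 0 lower, where 12.3% and 4.43% of genes were, and at a limit of 1.5-fold 4 of the 8 were higher and 0 lower, where 22.0% and 22.9% of the 5989 genes were. The median log2 ratio of the 8 was 0.58, with a range of 0.10 to 1.53, beside -0.02 for the 5989 genes and 0.10 for the 1332. Of the 5989 genes, 4.99% had a higher log2 ratio than Loxl1, 9.80% than Plod3, 15.4% than P4ha2, 21.8% than P4ha1, 22.3% than Plod1, 39.3% than Plod2, 43.5% than Lox and 44.2% than Serpinh1. Lox, Plod2 and Serpinh1 thus lay in the middle of the distribution and Loxl1 and Plod3 in its upper part.

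**Figure D1:**
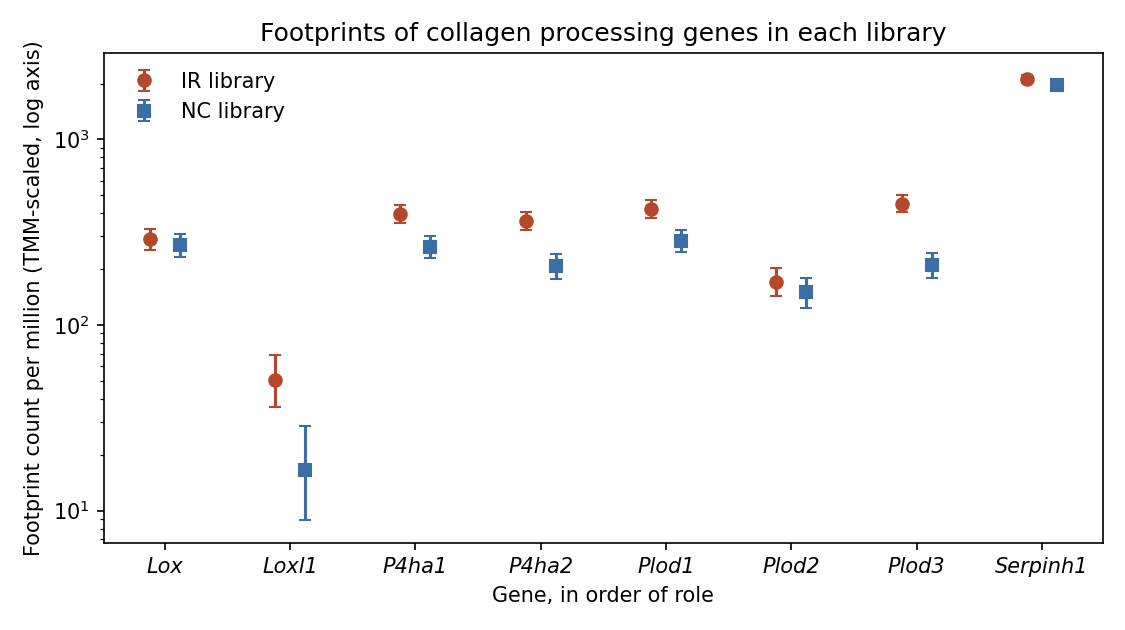
TMM-scaled footprint CPM (log axis) of the 8 collagen processing genes in the IR library (circles) and the NC library (squares), with exact Poisson 95% intervals. Intervals of the libraries are apart for Loxl1, P4ha1, P4ha2, Plod1 and Plod3. Heights of different genes are not comparable, since the counts are not divided by coding length.

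The lysyl oxidases differed from each other. Lox, the founding member and the main cross-linker of fibrillar collagen and elastin, spans bases 52516069 to 52529867 of chromosome 18 (mm10). It had 230 counts in IR against 210 in NC, which is 291 and 269 CPM (counts scaled to a common library size) after scaling. Its fold of 1.08 (0.893 to 1.31) was within counting error and became 0.857 under total-count scaling. Loxl1, which cross-links elastin and is held to elastic fibres by fibulin-5, spans bases 58287723 to 58313212 of chromosome 9. It had 40 and 13 counts (50.6 and 16.6 CPM), a fold of 3.04 (1.59 to 6.19). The fold of Loxl1 over that of Lox was 2.80 (1.42 to 5.88), a value that does not depend on library scaling because the scaling cancels. Loxl1 is the shallowest gene of the list, so its interval is the widest.

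The remaining lysyl oxidase relatives analysed, which are not on the list, also had higher counts in IR. Loxl3 had 55 and 22 counts, a fold of 2.47 (1.48 to 4.25). Loxl4 had 124 and 65 counts, a fold of 1.88 (1.39 to 2.59). Loxl1, Loxl3 and Loxl4 together had 219 counts in IR against 100 in NC, so for every 100 Lox counts there were 95.2 counts of these relatives in IR and 47.6 in NC. Relative to Lox, their fold was 1.998 (1.46 to 2.74). Fbln5, which encodes fibulin-5, had 221 and 119 counts, a fold of 1.83 (1.46 to 2.31), while Eln, which encodes elastin, had 0 and 2 counts.

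Both catalytic subunits of prolyl 4-hydroxylase had higher TMM-scaled footprint counts in IR. P4ha1, the widespread alpha subunit, spans bases 59323296 to 59373304 of chromosome 10. It had 314 counts in IR against 206 in NC (397 and 264 CPM), a fold of 1.51 (1.26 to 1.80), which became 1.19 (0.997 to 1.43) under total-count scaling and then held 1 in its interval. P4ha2, the alternative alpha subunit, spans bases 54100095 to 54131665 of chromosome 11, and had 288 and 162 counts (364 and 207 CPM), a fold of 1.76 (1.44 to 2.14). Their folds could not be separated from each other: that of P4ha2 over that of P4ha1 was 1.17 (0.891 to 1.53). Together they had 602 and 368 counts, a fold of 1.62 (1.42 to 1.84). P4ha3, a further alpha subunit that is not on the list, had 9 and 14 counts, too few to place (fold 0.635, 0.242 to 1.58).

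The beta subunit did not follow the alpha subunits. An active prolyl 4-hydroxylase joins alpha and beta subunits, and the beta subunit, encoded by P4hb, is protein disulfide isomerase, which also serves many other proteins of the endoplasmic reticulum. P4hb had 1496 counts in IR against 1342 in NC, a fold of 1.10 (1.02 to 1.19). Under total-count scaling this fold and its whole interval fall below 1-fold. For every 100 P4hb counts there were 40.2 counts of P4ha1 and P4ha2 in IR and 27.4 in NC. This ratio was 1.47 times as high in IR (1.26 to 1.71) for both subunits summed, 1.37 times (1.13 to 1.66) for P4ha1 and 1.59 times (1.29 to 1.97) for P4ha2.

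The lysyl hydroxylases had folds from 1.14 to 2.14, highest for Plod3. Plod3 is the multifunctional family member, which hydroxylates lysine and can also add the sugars to hydroxylysine, and it is needed for type IV collagen. It spans bases 136987019 to 136996648 of chromosome 5 and had 356 counts in IR against 164 in NC (450 and 210 CPM), a fold of 2.14 (1.78 to 2.60). Plod1, which hydroxylates lysines of the helical part of fibrillar collagen, spans bases 147909753 to 147936767 of chromosome 4 and had 334 and 222 counts (422 and 284 CPM), a fold of 1.49 (1.25 to 1.77), or 1.18 (0.990 to 1.40) under total-count scaling, where the interval held 1. Plod2 hydroxylates the telopeptides, the short ends outside the helix, and so governs the hydroxylysine-derived cross-links typical of scar tissue. It spans bases 92542223 to 92608428 of chromosome 9 and had 135 and 117 counts (171 and 150 CPM), a fold of 1.14 (0.883 to 1.47) that was within counting error.

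Among the lysyl hydroxylases, Plod3 stood above both relatives. Its fold was 1.44 times that of Plod1 (1.11 to 1.87) and 1.88 times that of Plod2 (1.36 to 2.59), whereas Plod1 and Plod2 could not be separated (1.30, 0.954 to 1.78). Summed, the 3 genes had 825 and 503 counts, a fold of 1.62 (1.45 to 1.81). Plod3 overlaps Znhit1, which is on the opposite strand and had 16 and 11 counts, over 1003 bases at one end. The strand setting of the counting is not known here, and with all Znhit1 reads added to Plod3 in both libraries its fold was 2.10. Of the other listed genes analysed, none overlaps another protein-coding gene, and Plod2 overlaps the RefSeq long non-coding gene B430319G15Rik over 647 bases. Colgalt1, the galactosyltransferase that adds the first sugar to hydroxylysine, had 308 and 207 counts, a fold of 1.47 (1.23 to 1.76), below that of Plod3 (ratio of folds 1.46, with a lower bound of 1.12).

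The chaperone gene Serpinh1 had the highest counts of the list and nearly the same level in both libraries. It spans bases 99345375 to 99353230 of chromosome 7 and had 1671 counts in IR against 1539 in NC (2112 and 1969 CPM), a fold of 1.07 (1.0003 to 1.15). Its direction depends on scaling: the fold was 0.850 by total counts and 0.960 by total counts without the 20 genes with most counts. Serpinh1 supplied 49.6% of the counts of the 8 genes in IR and 58.5% in NC. With it, the 8 genes summed to 3368 and 2633 counts, 0.379% of each library, with a TMM-scaled fold of 1.26 (1.20 to 1.33) and a total-count fold of 1.001. Without it, the other 7 summed to 1697 and 1094 counts, 0.191% of the IR library and 0.157% of the NC library, with a fold of 1.53 (1.42 to 1.65).

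Relative to Serpinh1, which removes the library scaling, 5 of the 7 other genes had a higher ratio in IR beyond counting error. Of the 5989 genes, 44.2% had a higher log2 ratio than Serpinh1, and of the 1332 with a mean of at least 100 counts 50.1% did. The share of all genes above Serpinh1 beyond counting error was not computed, so the 5 of 7 has no direct background. The ratio of folds was 2.83 for Loxl1 (1.48 to 5.80), 1.999 for Plod3 (1.63 to 2.45), 1.64 for P4ha2 (1.33 to 2.02), 1.40 for P4ha1 (1.16 to 1.70) and 1.39 for Plod1 (1.15 to 1.67). For Lox it was 1.01 (0.822 to 1.24) and for Plod2 1.06 (0.815 to 1.39).

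**Figure D2:**
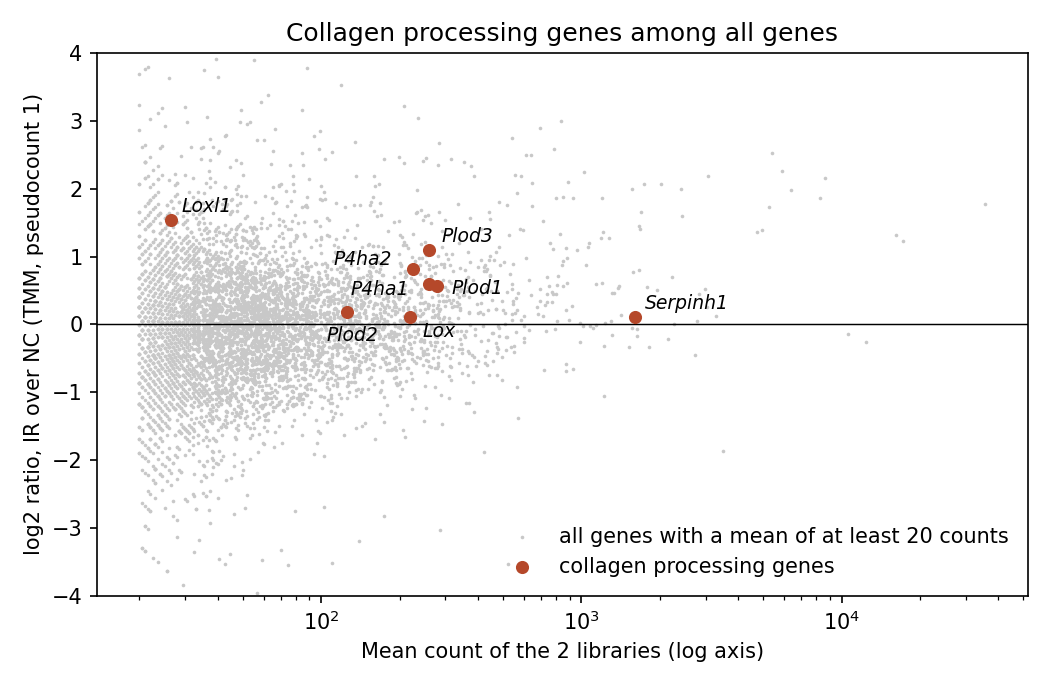
The log2 ratio of IR over NC (TMM, pseudocount of 1) against the mean count of both libraries (log axis), for the 5989 genes above the floor (grey) and the 8 collagen processing genes (red). The axis ends at 4 on either side and leaves out 30 genes. All 8 lie above 0, with Lox, Plod2 and Serpinh1 near it and Loxl1 and Plod3 above 1. Under total-count scaling every log2 ratio is lower by 0.34, and Lox, Plod2 and Serpinh1 fall below 0.

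The sequence before the start is given for 5 of the 8 genes, from RefSeq windows on GRCm38.p6. The choice did not rest on their folds. Lox was left out beforehand and not for want of a match, and Loxl1 and Plod2 are not among the windows used. Each run below holds the 250 bases before the RefSeq start, 5′ to 3′ on the gene's strand. Capitals mark ACGTG or its reverse complement CACGT, a form of the core of the element bound by hypoxia-inducible factors. Other forms of that core were not searched and are not marked. The windows are chr10:59323046-59323295 (plus strand) for P4ha1, chr11:54100674-54100923 (plus) for P4ha2, chr5:136986769-136987018 (plus) for Plod3, chr4:147936777-147937026 (minus) for Plod1 and chr7:99353240-99353489 (minus) for Serpinh1.
P4ha1: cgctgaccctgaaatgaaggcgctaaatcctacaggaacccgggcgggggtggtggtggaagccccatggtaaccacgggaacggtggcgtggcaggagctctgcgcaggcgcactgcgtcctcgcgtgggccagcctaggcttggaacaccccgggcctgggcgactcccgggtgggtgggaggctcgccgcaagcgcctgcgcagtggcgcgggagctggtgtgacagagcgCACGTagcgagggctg
P4ha2: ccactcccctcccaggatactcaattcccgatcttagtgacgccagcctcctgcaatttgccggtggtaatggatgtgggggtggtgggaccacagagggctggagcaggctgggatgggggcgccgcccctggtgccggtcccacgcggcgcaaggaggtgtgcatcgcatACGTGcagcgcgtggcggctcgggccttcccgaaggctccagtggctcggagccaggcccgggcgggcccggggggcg
Plod3: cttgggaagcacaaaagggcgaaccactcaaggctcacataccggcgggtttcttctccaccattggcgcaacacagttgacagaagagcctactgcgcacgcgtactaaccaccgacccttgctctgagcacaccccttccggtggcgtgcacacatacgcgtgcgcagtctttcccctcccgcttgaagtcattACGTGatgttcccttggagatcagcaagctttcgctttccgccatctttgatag
Plod1: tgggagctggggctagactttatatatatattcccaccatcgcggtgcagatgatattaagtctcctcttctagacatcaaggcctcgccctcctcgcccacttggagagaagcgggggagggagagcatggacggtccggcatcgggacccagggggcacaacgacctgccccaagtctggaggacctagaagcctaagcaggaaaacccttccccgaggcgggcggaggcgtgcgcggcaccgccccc
Serpinh1: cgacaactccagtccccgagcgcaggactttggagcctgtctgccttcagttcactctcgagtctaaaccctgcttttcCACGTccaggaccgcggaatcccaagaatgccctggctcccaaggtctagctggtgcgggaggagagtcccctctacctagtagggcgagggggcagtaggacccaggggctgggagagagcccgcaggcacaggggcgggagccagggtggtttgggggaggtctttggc

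The marked form lay 16 bases before the start in P4ha1, 78 in P4ha2, 54 in Plod3 and 171 in Serpinh1, counted to its first base. It was not found in the Plod1 window, where other forms of the core were not searched. Of all 32851 RefSeq windows of this length, 16.6% held it on either strand. These 5 letters also occur within other elements, and a match is a description of sequence only. Whether the marked form bears on the counts was not tested. The RefSeq start of P4ha2 lies 829 bases downstream of the start given in the deposited table. Its window and marked form therefore lie inside the gene span given there, not before it. For the other 4 genes the distance was at most 9 bases.

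The chains of type I collagen, the main substrate of these enzymes in fibroblasts, differed little between the libraries under TMM. Col1a1 and Col1a2, the chains of type I collagen, had folds of 1.09 (1.04 to 1.15) and 1.04 (0.960 to 1.12), and both fall below 1-fold under total-count scaling. Col3a1, the chain of type III collagen, was lower in IR, with a fold of 0.662 (0.577 to 0.760). Above the floor were 18 chains. The counting interval of 9 lay above 1-fold, that of 1 below and that of 8 across it, with a median log2 ratio of 0.22, where 23.5% of the 5989 genes lay above and 23.7% below. Under total-count scaling these counts were 5, 6 and 7 and the median was -0.11. Of all genes 13.1% and 39.1% then lay above and below, with a median of -0.34. The largest ratios among chains above the floor were those of Col11a1 (37 and 9 counts), Col27a1 (43 and 13) and Col5a3 (76 and 32), chains of low count. The lowest besides Col3a1 were Col16a1 (68 and 76 counts) and Col6a3 (163 and 160), both within counting error.

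Set against the summed counts of the 20 collagen chains analysed, 7980 in IR and 7197 in NC, the roles and the genes within a role differed. Lysyl hydroxylases together had 10.3 counts per 100 collagen counts in IR and 6.99 in NC, a ratio of 1.48 (1.32 to 1.66), made up of 1.96 for Plod3 (1.62 to 2.38), 1.36 for Plod1 (1.14 to 1.62) and 1.04 for Plod2 (0.805 to 1.35). Prolyl hydroxylase alpha subunits had 7.54 and 5.11, a ratio of 1.48 (1.29 to 1.69). Lysyl oxidases had 3.38 and 3.10, a ratio of 1.09 (0.908 to 1.31) in which Lox, at 0.988 (0.813 to 1.20), outweighed Loxl1, at 2.77 (1.45 to 5.66). Serpinh1 had 20.9 and 21.4, a ratio of 0.979 (0.907 to 1.06). Serpinh1 per count of type I collagen was likewise 34.9 and 35.0 per 100, a ratio of 0.996 (0.919 to 1.08), whereas per count of Col3a1 the ratio was 1.62 (1.39 to 1.89). Like the ratios between relatives, these ratios do not depend on the scaling of the libraries, although they do depend on which chains make up the denominator.

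**Figure D3:**
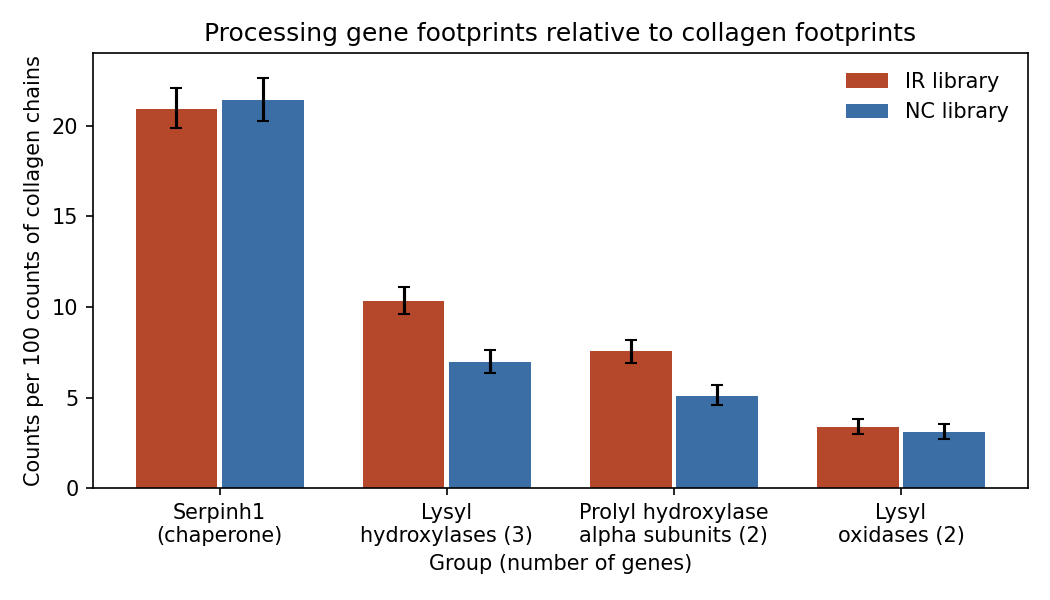
Counts of each role per 100 counts of the 20 collagen chains in the IR and NC libraries, with exact binomial 95% intervals for counting error. Lysyl hydroxylases stood at 10.3 and 6.99 and prolyl hydroxylase alpha subunits at 7.54 and 5.11, while Serpinh1 stood at 20.9 and 21.4. Heights of different groups are not comparable, since counts are not divided by coding length.

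Other genes of collagen maturation ranged from lower counts in IR, as for Mia3 and Sparc, to several-fold higher counts. Of 43 such genes listed, 41 were analysed and 29 were above the floor. The counting interval lay above 1-fold for 14 of these, below it for 2 and across it for 13, with a median log2 ratio of 0.21, where 23.5% of the 5989 genes lay above and 23.7% below. At least 2-fold higher were 6 and at least 2-fold lower 0, against 11.3% and 11.4% of all genes. Total-count scaling gave 9 above, 9 below and 11 across, against 13.1% above and 39.1% below of all genes, with a list median of -0.13. The direction of the list against 1-fold is therefore not settled. The median of the 5989 genes was -0.02 under TMM and -0.34 under total counts, below that of the list under either. Hspa5, the main chaperone of the endoplasmic reticulum and the gene of this list with most counts, had 2275 and 2246 counts, a fold of 1.001 (0.944 to 1.06). Pcolce, which enhances the procollagen protease encoded by Bmp1, had 1243 and 1217 counts, a fold of 1.01 (0.932 to 1.09). Tll1 and Tll2, relatives of Bmp1, had 6 and 0, and 1 and 0 counts.

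The highest ratios of that list above the floor were those of Lum, Tgm2 and Furin. Lum, a proteoglycan that binds collagen fibrils, had 1349 and 222 counts. Tgm2, a transglutaminase that cross-links matrix proteins by a route that does not need lysyl oxidase, had 995 and 292 counts, a fold of 3.37 (2.95 to 3.85). Furin, a convertase that activates many secreted proenzymes, had 390 and 126 counts, a fold of 3.06 (2.50 to 3.77). The lowest ratios above the floor were those of Ppib (26 and 37 counts), Leprel2 (22 and 31) and Mia3 (110 and 145). Ppib is a prolyl isomerase that helps procollagen fold, Leprel2 a prolyl 3-hydroxylase and Mia3 the receptor that loads procollagen into transport carriers. Of the 3, Mia3 alone was lower beyond counting error, at 0.749 (0.580 to 0.967).

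Elastic fibre genes, whose proteins are the other main substrates and scaffolds of lysyl oxidases, were split. With 12 reaching the floor, the counting interval lay above 1-fold for 6, below it for 3 and across it for 3 under TMM, and for 3, 4 and 5 under total-count scaling. The shares of all genes above and below were 23.5% and 23.7% under TMM, and 13.1% and 39.1% under total-count scaling. Fbln2 had the most counts, 898 and 599, a fold of 1.48 (1.33 to 1.65). Ltbp2 (77 and 34 counts) and Emilin1 (68 and 35) were higher, and Fbn2 (14 and 35), Ltbp4 (30 and 66) and Fbn1 were lower. Fbn1, the main microfibril protein, had 269 and 319 counts, a fold of 0.833 (0.706 to 0.983).

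**Figure D4:**
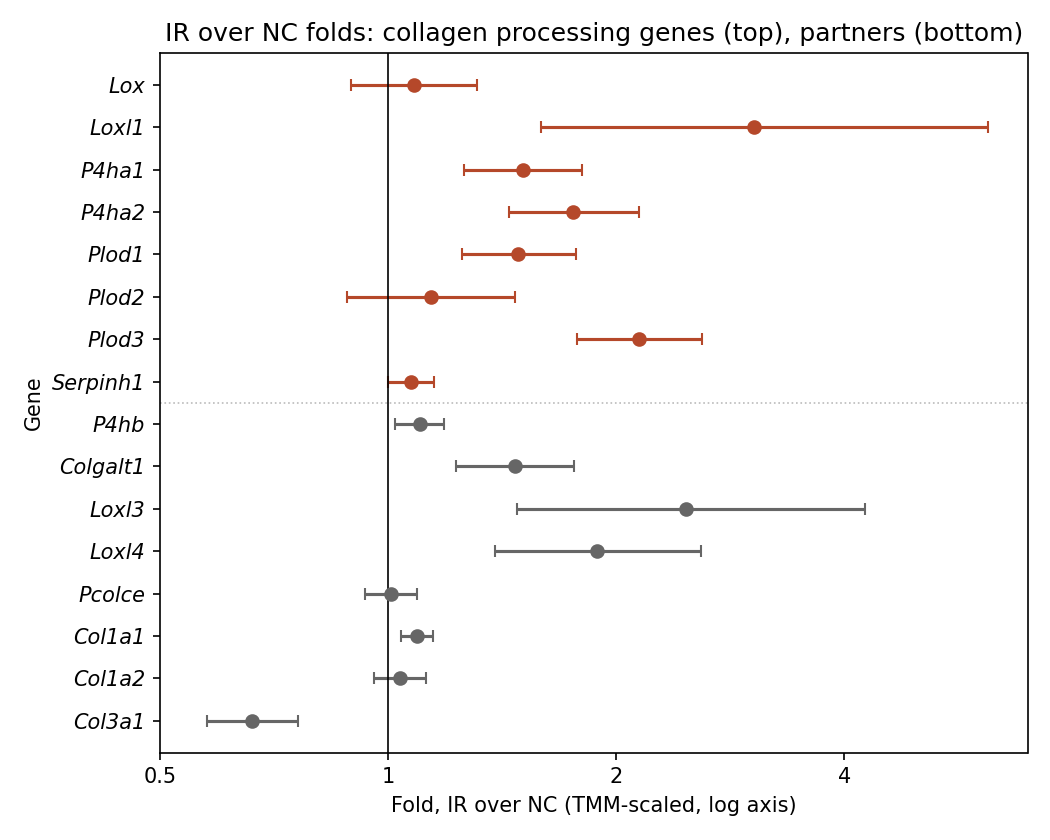
Fold of IR over NC (TMM-scaled, log axis) with exact 95% counting intervals for the 8 collagen processing genes (red, top) and 8 partner genes (grey, bottom). Intervals of Lox, Plod2, Pcolce and Col1a2 cross 1, that of Serpinh1 starts at 1.0003, and Col3a1 alone lies below 1. Under total-count scaling every point moves left by 0.34 on the log2 scale.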

How the data were processed

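Ribosome footprints of 2 libraries, 1 labelled IR and 1 labelled NC, were grouped by sample title. Per the file headers, the authors deposited whole-number counts of mapped reads per gene beside edgeR log2 CPM. In the submitters' processing notes stand DESeq2, edgeR, HTSeq 0.9.1, TopHat2, Bowtie, cutadapt 1.9.3 and the build mm10, without roles. For the strand setting, the annotation release and the treatment of multiply matching reads, details were not given in the sources used here. The deposited log2 CPM of IR imply a library size of 791012, beside 791008 obtained here. The other log2 CPM column, 1 in number, was not used.

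Counts were scaled with TMM factors (edgeR 4.0.16, R 4.3.3). Folds carry exact (Clopper-Pearson) 95% intervals of the IR share of a gene's counts. Ratios of folds carry exact conditional intervals. Log2 ratios use a pseudocount of 1, and background shares use genes whose mean reached 20 counts. The limit of 3 counts behind a 0 equals 3.79 CPM in IR and 3.84 CPM in NC. Folds and intervals were checked on simulated counts that held counting error only. PCR copies, spread between replicates and scaling error were not simulated, so the check does not cover them. With 1 library per group no test between conditions was made. The genes and lists were chosen with earlier results of these data known. All listed genes analysed were named, with the 3 highest, the 3 lowest and the most counted gene of each partner list, and partners named in advance. Fbln5 beside Loxl1, Eln, Tll1, Tll2, Sparc, Fkbp10 and its relatives, the cell type markers and the prolyl 3-hydroxylation genes were named in addition, after their values were seen. Other scalings, floors, pseudocounts, fold limits and denominators were tried. Python 3.11.15 with scipy 1.17.1, pandas 2.3.3 and numpy 2.4.6 was used.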

Additional observations from a re-analysis of the deposited data

How the results depend on the processing

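Of 103 alternative values of 22 results, 83 stayed within the interval or limit set for them, 18 moved beyond it, and 2, both of Serpinh1, reversed a value that lay beyond counting error. In all, 6 alternative folds crossed 1-fold, among them Plod2 at 0.903 under total counts and Lox at 0.968 without the 20 genes with most counts. Total-count scaling accounts for most of these. It gave folds of 0.857 for Lox, 1.19 (0.997 to 1.43) for P4ha1, 1.39 for P4ha2, 1.18 (0.990 to 1.40) for Plod1, 1.70 for Plod3 and 0.850 for Serpinh1, which reversed, and folds of the sums of 1.001 for all 8 genes, 0.947 for lysyl oxidases, 1.28 for prolyl hydroxylase subunits and 1.28 for lysyl hydroxylases. Total-count scaling gave the 8 genes a median log2 ratio of 0.24. The median of the 5989 genes was -0.34 under it and -0.02 under TMM. By total counts 1 gene was at least 2-fold higher, 3 were higher beyond counting error (Loxl1, P4ha2 and Plod3) and 1 was lower (Serpinh1). Total counts without the 20 genes with most counts gave 0.960 for Serpinh1, again reversed, 1.13 for the sum of all 8, and 1 gene at least 2-fold higher. A mean of at least 100 counts, which leaves out Loxl1, also left 1 gene at least 2-fold higher, and a limit of 1.5-fold gave 4. The sum without Serpinh1, an alternative chosen after seeing the data, gave 1.53. Counts divided by 4, standing for PCR copies, left P4ha1, P4ha2, Plod1 and Plod3 higher beyond counting error. Levels per 1000 codons were not run, because coding lengths were not used here. No paired analysis was possible because each group holds 1 library.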

Other observations

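The genes of the prolyl 3-hydroxylation complex differed from each other, a pattern chosen after its values were seen. This complex of the endoplasmic reticulum joins a prolyl 3-hydroxylase (Lepre1, now named P3h1), the cartilage-associated protein Crtap and the isomerase Ppib, and it also helps procollagen fold. Crtap had 128 counts in IR against 44 in NC, a fold of 2.87 (2.03 to 4.15), while Lepre1 had 51 and 63, a fold of 0.800 (0.542 to 1.18), and Ppib 26 and 37, a fold of 0.694 (0.404 to 1.18). The fold of Crtap over that of Lepre1 was 3.58 (2.11 to 6.14) and over that of Ppib 4.11 (2.16 to 7.96), values free of library scaling. Fkbp10, an isomerase gene linked to the telopeptide hydroxylation that Plod2 carries out, had 115 and 57 counts. Its fold was 1.99 (1.44 to 2.79), beside 1.14 for Plod2 itself, and the ratio of these folds was not computed. Of its relatives above the floor, Fkbp9 had a fold of 1.52 (1.12 to 2.08) and Fkbp7 one of 1.07 (0.585 to 1.98).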
